A study of Mus musculus with 39 samples.

Results

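The 6 peak lists of H3K27ac in DP and Oct4+ nEnd were compared gene by gene, 3 libraries of each population, out of 39 samples in the series. The members are all the H3K27ac lists of these 2 populations, and no Pdgfra+ list was used. nEnd (naive extra-embryonic endoderm) is a mouse stem cell culture made by differentiating embryonic stem cells to primitive endoderm, sorting PDGFRA-positive cells and expanding them on feeder fibroblasts with Activin A, CHIR99021 and LIF. The line OCT4-mCherry, with no further treatment, was sorted by FACS for OCT4-mCherry and for PDGFRA stained with an APC-coupled antibody. DP cells are positive for both, and Oct4+ cells for OCT4-mCherry alone. All 6 libraries come from this 1 reporter line. The study calls its replicates biological, and the sources used here do not tell whether the culture, the sort or both were repeated, so a p-value measures the spread between these libraries.

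H3K27ac, acetylation of lysine 27 of histone H3, sits on active promoters and active enhancers, and CUT&Tag maps it by letting an antibody direct a transposase to the marked chromatin. In the early mouse embryo, the inner cell mass gives rise to the epiblast and to the primitive endoderm. In the epiblast, OCT4 (Pou5f1), SOX2 and NANOG form the core pluripotency network. In the primitive endoderm, GATA6, GATA4, SOX17 and SOX7 act, and the cells lay down a basement membrane of laminin and type IV collagen. DP cells carry both OCT4 and this endodermal receptor, and Oct4+ cells were sorted as negative for the receptor. The question of the comparison is which genes carry active chromatin in one state and not in the other.

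The DP lists held 10957, 3079 and 12244 peaks in replicates 1 to 3, and the Oct4+ lists 38619, 65131 and 8574. The depth of sequencing is unknown, and the weakest peaks kept by the authors had a total signal (coverage summed over the peak's bases) of 13683 to 14586 in DP and 5460 to 6021 in Oct4+. An absent peak is therefore a peak under the list's own limit, not absent acetylation, and a smaller share of acetylated cells cannot be told apart from less acetylation per cell. Lists were compared whole, and at equal numbers, with the 3079 peaks of highest total signal kept in each. That number is the whole list of DP replicate 2. A peak was given to the protein-coding gene with the nearest transcription start site (TSS) up to 20 kb from the peak's centre. A gene is called Oct4-only when 3 of 3 Oct4+ and 0 of 3 DP lists have a peak for it, DP-only in the opposite case, and shared when all 6 have one. The rank of a gene is that of its highest peak within its own list, with rank 1 for the highest total signal.

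Before the counts, 5 stretches of sequence are shown, 4 from the strongest distal differences and 1 from the Nanog locus. Each is 200 bp of the plus strand of GRCm38 around the maximum of a region outside promoters, with distances taken from that maximum. The first 4 are the regions of best mean rank with a peak in 3 lists of one population and 0 of the other at equal numbers, and the fifth is the best distal Oct4+ peak given to Nanog, which lies outside the equal number in every list. Capitals mark exact matches to any of 10 motifs described further on.
Oct4-only region 26.0 kb from Mkrn1, chr6:39446331-39446530: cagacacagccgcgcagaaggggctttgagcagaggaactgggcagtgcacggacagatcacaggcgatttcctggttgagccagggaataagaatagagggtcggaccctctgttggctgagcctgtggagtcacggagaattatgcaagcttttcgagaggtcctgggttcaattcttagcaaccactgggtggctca
Oct4-only region in an Esrrb intron, chr12:86501988-86502187: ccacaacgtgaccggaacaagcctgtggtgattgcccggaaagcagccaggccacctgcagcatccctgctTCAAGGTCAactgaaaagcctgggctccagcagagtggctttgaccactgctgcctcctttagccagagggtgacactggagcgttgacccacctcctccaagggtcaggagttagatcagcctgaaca
DP-only region 72.5 kb from Gata4, chr14:63344059-63344258: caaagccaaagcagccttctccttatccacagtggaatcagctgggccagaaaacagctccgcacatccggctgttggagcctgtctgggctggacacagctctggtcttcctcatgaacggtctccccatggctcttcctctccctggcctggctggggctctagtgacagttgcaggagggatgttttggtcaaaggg
DP-only region in a Gsn intron, chr2:35266906-35267105: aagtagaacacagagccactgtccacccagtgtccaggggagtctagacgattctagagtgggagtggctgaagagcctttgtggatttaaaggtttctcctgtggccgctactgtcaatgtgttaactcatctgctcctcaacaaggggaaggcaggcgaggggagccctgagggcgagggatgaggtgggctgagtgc
Oct4+ peak 12.2 kb from Nanog, chr6:122695224-122695423: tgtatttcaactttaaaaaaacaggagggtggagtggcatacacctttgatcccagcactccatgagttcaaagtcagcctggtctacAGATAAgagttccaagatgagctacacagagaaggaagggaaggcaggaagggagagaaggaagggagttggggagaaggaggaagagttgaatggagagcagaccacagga
The Esrrb region, chr12:86496147-86515151, ranked 19, 18 and 5 in the Oct4+ lists, had no overlapping peak anywhere in the 3 DP lists, and carried an H3K4me1 peak in 3 of 3 Oct4+ and 0 of 3 DP lists. ESRRB is an orphan nuclear receptor of the naive pluripotency network, and the capitals in this stretch are one match to the motif that bears its name. Up to 20 kb from its TSSs, by contrast, Esrrb had an H3K4me1 peak in 3 of 3 lists of each population. An H3K27me3 peak was there in 3 of 3 lists of each as well. The Mkrn1 region, chr6:39429130-39456922, ranked 3, 10 and 29 in Oct4+ and was listed in DP replicate 3 at rank 7174. It carried H3K4me1 in all 6 lists of that mark. The Gata4 region, chr14:63337335-63348840, ranked 56, 63 and 113 in DP, was found in Oct4+ replicate 2 alone at rank 20592, and carried H3K4me1 in 3 of 3 DP and 0 of 3 Oct4+ lists. GATA4 is a zinc-finger factor of the endoderm. The Gsn region, chr2:35262359-35274788, within the gene of the actin-severing protein gelsolin, ranked 160, 31 and 55 in DP against 63690 in Oct4+ replicate 2 and no listed peak in replicates 1 and 3. None of the 10 motifs was found in the 200 bp shown of the Mkrn1, Gata4 and Gsn regions. The peak near Nanog was low in every Oct4+ list, at ranks 18664, 43888 and 3884, and was in no DP list. Repeats made up 78.5% of its 200 bp, and its capitals are a GATA motif.

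The genes used for the sort were read first. Pou5f1, which encodes OCT4 (chr17:35506018-35510772), ranked 134, 177 and 130 in the Oct4+ lists. In DP it ranked 808 in replicate 1 and had no listed peak in replicates 2 and 3, also when any peak edge up to 20 kb from its TSS was counted. All Oct4+ ranks were therefore above the one DP rank, although both gates are OCT4-mCherry-positive. Pdgfra (chr5:75152292-75198215) ranked 2861 and 1100 in DP replicates 1 and 3 and had no listed peak in DP replicate 2 or in any Oct4+ list. It had an H3K4me1 peak in 3 of 3 DP and 0 of 3 Oct4+ lists, and an H3K27me3 peak in 0 of 3 DP and 2 of 3 Oct4+ lists.

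Of 21829 protein-coding genes, whole lists gave 559 Oct4-only genes (2.56%), 22 DP-only genes (0.101%) and 1501 shared genes (6.88%). At equal numbers there were 177 Oct4-only genes (0.811%), 438 DP-only genes (2.01%) and 388 shared genes (1.78%). Which population had more genes of its own thus turned round with the size of the lists. With whole lists cut at a common total signal of 14586, the counts were 39 Oct4-only and 408 DP-only genes. The order was that at equal numbers, but the cut lists differed in length. DP replicate 3 kept its whole list, since its lowest total was 14586. DP replicate 2 and Oct4+ replicate 3 fell below the equal number, as their weakest peaks at equal numbers had totals of 13728 and 8991. In Oct4+ replicates 1 and 2 these totals were 19550 and 21581, so more than the equal number remained. How far the lengths of the lists set the order was not tested. A peak's edge can lie within 20 kb of a TSS when its centre is given to another gene. Counting such edges, 19 of the 22 Oct4-only and 25 of the 29 DP-only genes that the rule for named genes chose still had no peak of the other population at equal numbers. The exceptions, Notum, Ndufaf3, Zbtb45, Ndufs7, Tmem140, Tbc1d24 and Afmid, are marked where they are described. At equal numbers the DP lists reached 2295 to 2389 genes and the Oct4+ lists 1762 to 1910 (8.07 to 8.75% of all genes against 10.5 to 10.9% in DP). Of the 177 Oct4-only genes, 61 had no peak in any whole DP list. Of the 438 DP-only genes, 11 had none in any whole Oct4+ list and 170 had one in all 3. The whole Oct4+ lists held 366, 417 and 176 of the 438, at median ranks of 9849, 9235 and 5355. The same whole lists held a peak for 48.9, 63.2 and 20.5% of all genes. Most DP-only genes were thus listed in whole Oct4+ lists as well. Their ranks there lie past 3079 by the definition of the call. Leaving out DP replicate 2 alone, which raised the equal number to 8574 peaks, gave 317 Oct4-only, 1169 DP-only and 1770 shared genes.

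**Figure D1:**
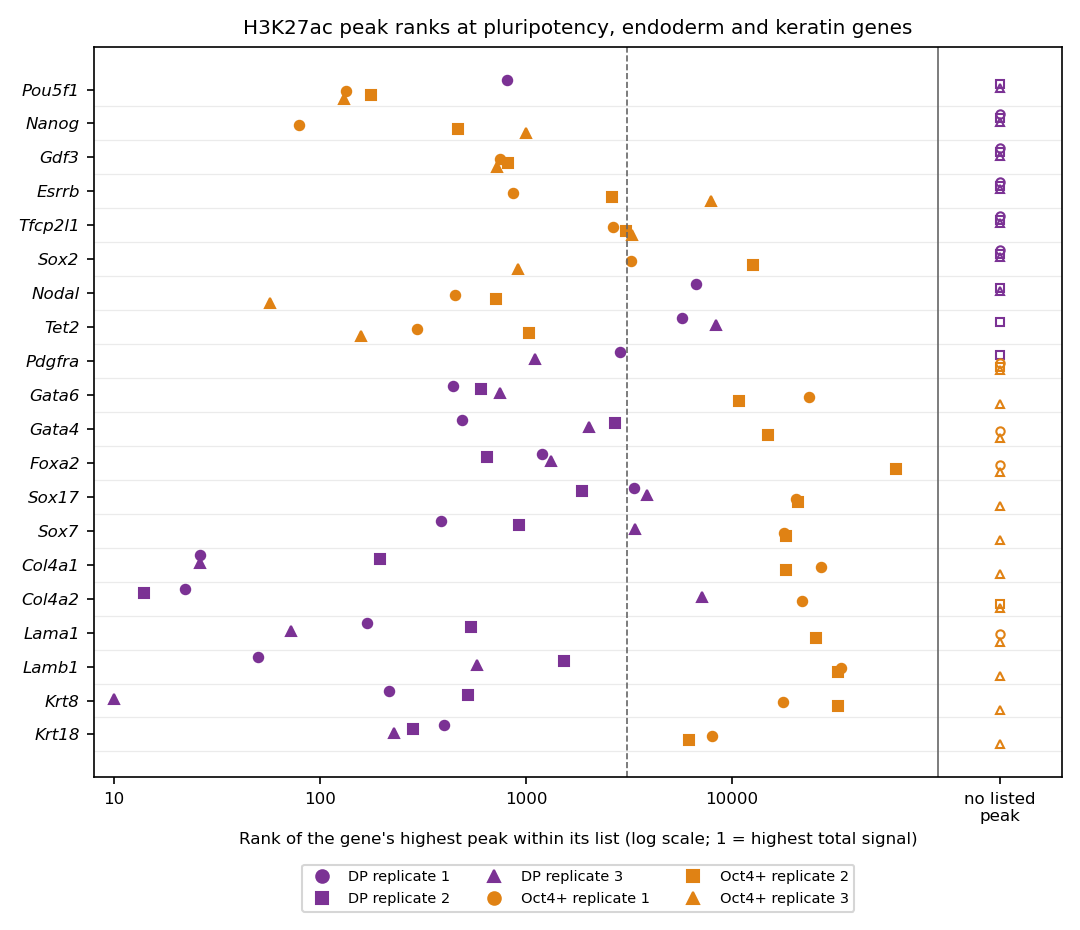
Rank of the highest H3K27ac peak of each gene within its list, on a log axis, for the 6 libraries. Open symbols on the right are libraries with no listed peak, and the dashed line is the equal number of 3079. Oct4+ libraries lie to the left for Pou5f1 to Tet2, with no DP peak assigned by its centre for Nanog, Gdf3, Esrrb, Tfcp2l1 and Sox2, and DP libraries lie to the left from Pdgfra to Krt18.

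Genes of naive pluripotency, the state of the preimplantation epiblast, carried H3K27ac more often in Oct4+ lists. Of 30 genes, 18, 14 and 17 had a peak in Oct4+ replicates 1 to 3 at equal numbers and 13, 8 and 8 in DP, or 54.4 ± 6.94% against 32.2 ± 9.62% (mean ± SD, n = 3), beside 8.44 ± 0.342% and 10.8 ± 0.239% of all genes. The populations did not overlap. Of the list, 3 genes were Oct4-only, 1 was DP-only and 5 were shared. The background for such calls is 0.811%, 2.01% and 1.78% of all genes. Nanog, the homeodomain factor that holds cells in the naive state (chr6:122707489-122714633), ranked 79, 465 and 999 in Oct4+ and was in no DP list. Its H3K4me1 peaks were in 3 of 3 Oct4+ and 2 of 3 DP lists. Gdf3, a ligand of the TGF-beta family from the same cluster of genes on chromosome 6, ranked 745, 820 and 720 in Oct4+ and was likewise in no DP list. By its edges the same peak is also within 20 kb of Dppa3, a gene of maternal and naive cells, so it cannot be given to one gene alone. H3K4me1 went the other way at Gdf3, with a peak in 0 of 3 Oct4+ and 2 of 3 DP lists. Tet2, an enzyme that oxidises methylated cytosine, ranked 296, 1035 and 157 in Oct4+ and 5742 and 8317 in DP replicates 1 and 3.

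Other naive genes were absent from all DP lists but lower in Oct4+. Esrrb, by its peaks up to 20 kb from a TSS, ranked 864, 2623 and 7877, Tfcp2l1 2640, 3065 and 3261, and Sox2 3241, 12638 and 917. For Tfcp2l1, peaks whose edge came within 20 kb of a TSS were found in DP replicates 1 and 3, at ranks 3596 and 7528. Tdgf1, the co-receptor of Nodal, ranked 1537, 5097 and 1043 in Oct4+, and Fgf4, the growth factor by which the epiblast signals to the primitive endoderm, 1612, 7062 and 1214. By peak centres, these 5 genes were in all whole Oct4+ lists and in 0 DP lists. By edges, Tdgf1 was also in DP replicate 3, at rank 6949.

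The pluripotency list was not uniformly on the Oct4+ side. Lin28a, an RNA-binding protein that blocks let-7 maturation, was DP-only at equal numbers, with ranks of 1961, 991 and 2734 in DP against 15063, 13264 and 4441. Klf4 ranked 227, 207 and 321 in DP and 2729, 1313 and 885 in Oct4+, so that each DP rank was higher. Klf2, of the same Kruppel-like family, was the opposite, at 2821, 2105 and 2290 in DP and 625, 9 and 39 in Oct4+. Sall4, a zinc-finger factor of both lineages, ranked high throughout, at 420, 155 and 901 in DP and 238, 293 and 239 in Oct4+. L1td1 and Jarid2, a subunit that targets Polycomb repressive complex 2, made up the rest of the 5 shared genes.

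Of 20 genes of the formative and primed states, 6, 3 and 4 had a peak in Oct4+ at equal numbers and 1, 0 and 0 in DP. Nodal, the ligand that maintains the epiblast, ranked 454, 712 and 57 in Oct4+ against 6689 in DP replicate 1 alone. Dnmt3a, a de novo DNA methyltransferase, ranked 2233, 628 and 2187 against 8280 in the same DP library. Both were Oct4-only at equal numbers, and 0 of the list were DP-only. Otx2, which marks exit from the naive state, had a peak in Oct4+ replicates 1 and 2 (ranks 2137 and 3943), in no DP list, and H3K27me3 in 3 of 3 lists of each population.

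Endoderm transcription factors showed the reverse. Of 22 genes, 9 had a peak in each of the 3 DP lists at equal numbers, and 1, 0 and 1 in the Oct4+ lists. Of these genes 5 were DP-only and 0 Oct4-only. Gata6, at the top of the endoderm programme, ranked 441, 601 and 743 in DP against 23743 and 10828 in Oct4+ replicates 1 and 2 and no peak in replicate 3. Gata4 ranked 491, 2697 and 2022 in DP against 14870 in Oct4+ replicate 2 alone. Foxa2, a forkhead pioneer factor, ranked 1196, 643 and 1317 in DP against 62517 in Oct4+ replicate 2. Creb3l2, a regulator of secretory capacity, was also DP-only, at 527, 3021 and 2913, but was in all whole Oct4+ lists at 9838, 8394 and 8440.

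Sox7 and Sox17, the SOX factors of the endoderm, were past the equal number in some DP lists. Sox17 ranked 3332, 1873 and 3874 in DP and 20346 and 20833 in Oct4+ replicates 1 and 2, and Sox7 384, 928 and 3368 against 17930 and 18239. Foxa3 was listed in DP replicates 1 and 3 at ranks 671 and 835 and in no Oct4+ list. All of Gata6, Gata4, Sox17 and Sox7 had an H3K27me3 peak near a TSS in 3 of 3 Oct4+ lists, and all but Gata4 had it in 0 of 3 DP lists. H3K27me3 is the mark of Polycomb repression. Foxa2 had it in 3 of 3 DP and 2 of 3 Oct4+ lists, so this split did not hold for every factor.

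The basement membrane list was on the DP side as well, with 11, 11 and 12 of 22 genes in DP and 3, 5 and 6 in Oct4+ at equal numbers. Col4a1 and Col4a2, the 2 chains of type IV collagen, overlap at their starts on opposite strands (chr8:11198423-11312826 and chr8:11312805-11449287), and 1 peak over this promoter ranked 22, 14 and 26 in DP. Its centre decided which of these genes it was given to, so that Col4a1 ranked 26, 196 and 26 in DP, and Col4a2 22, 14 and 7144. In Oct4+, the highest peak of either gene ranked 21794 and 18268 in replicates 1 and 2, with none in replicate 3. Lama1, the laminin alpha 1 chain, ranked 168, 537 and 72 in DP against 25458 in Oct4+ replicate 2, and Lamb1 50, 1524 and 579 against 33789 and 32540. P4ha1, a prolyl hydroxylase of collagen, ranked 857, 663 and 834 against 14079 and 12003. Serpinh1, the collagen chaperone, ranked 132, 112 and 166 in DP and 2250 in Oct4+ replicate 2 alone. Some members lay on the Oct4+ side. Dag1, the laminin receptor dystroglycan, was Oct4-only with ranks of 1479, 1427 and 659 against 6378 and 10612 in DP replicates 1 and 3. Itga6, a laminin-binding integrin, was in no DP list and ranked 5322, 6095 and 2978 in Oct4+. Fn1, which encodes fibronectin, and Nid1 were each in no DP list and in 2 Oct4+ lists.

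Endoderm receptors and effectors had a peak in 10, 3 and 4 of 27 genes in DP and 0, 1 and 1 in Oct4+ at equal numbers, and 0 genes met the call in either direction. Srgn, a proteoglycan core protein, ranked 59, 54 and 193 in DP against 20862 and 2672 in Oct4+ replicates 1 and 2. Sparc, a matrix glycoprotein of parietal endoderm, ranked 180, 250 and 75 in DP and 5873, 4255 and 2830 in Oct4+. Cubn, the endocytic receptor cubilin, was in DP replicates 1 and 3 at ranks 2387 and 3403 and in Oct4+ replicate 1 at 24480.

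**Figure D2:**
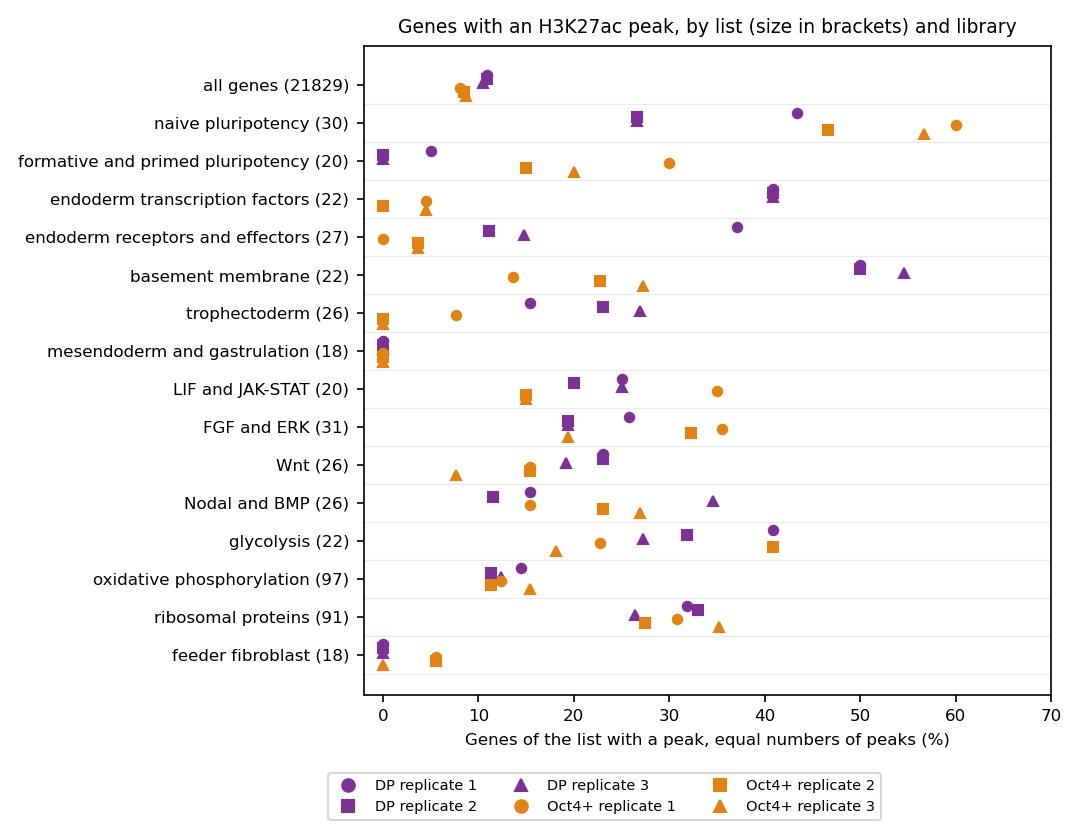
Share of the genes of each list with an H3K27ac peak, at 3079 peaks per list, for each library, with all 21829 genes on top. The populations are apart for both pluripotency lists, with Oct4+ higher. They are also apart, with DP higher, for the endoderm transcription factor, endoderm receptor, basement membrane, trophectoderm and Wnt lists and for all genes.

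Of 26 trophectoderm genes, the lineage of the outer blastocyst, 4, 6 and 7 had a peak in DP at equal numbers and 2, 0 and 0 in Oct4+. The 2 DP-only members, the keratins Krt8 and Krt18, are used by endoderm and trophectoderm alike. Krt8 ranked 215, 521 and 10 in DP and 17716 and 32691 in Oct4+ replicates 1 and 2, and Krt18 401, 283 and 229 against 7986 and 6170. By edges the highest peak of either gene was the same in every list, at 215, 283 and 10 in DP and 7986 and 6170 in Oct4+. The 2 calls therefore cannot be counted as separate. Tead4, a Hippo pathway factor of the trophectoderm, ranked 223, 137 and 513 in DP and 831, 3110 and 4550 in Oct4+, and Elf3 82, 374 and 1020 against 2194, 4345 and 6129. Of the factors that define the lineage, Cdx2 was listed in DP replicates 1 and 3 at ranks 3627 and 4965, under the equal number, and in no Oct4+ list, and Gata3 and Tfap2c had a peak in Oct4+ replicates 1 and 2 alone, at ranks from 14680 to 36970. Genes of mesendoderm and gastrulation had no peak in any library at equal numbers, 0 of 18.

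Markers of feeder fibroblasts were searched because nEnd is grown on these cells. At equal numbers 1, 1 and 0 of 18 had a peak in Oct4+ and 0, 0 and 0 in DP. In whole lists the counts were 7, 13 and 3 in Oct4+ (38.9, 72.2 and 16.7%, beside 48.9, 63.2 and 20.5% of all genes) and 1, 0 and 0 in DP (5.56, 0 and 0%, beside 32.9, 10.9 and 34.8%). The Oct4+ shares were thus near those of all genes, and the DP shares below them. Col3a1 ranked 1662, 31850 and 4925 and Col5a1 9308, 4124 and 3670 in Oct4+, with no DP peak, whereas Col1a2, Dcn, Prrx1 and Fap were in no list. Their part in the other Oct4+ peaks was not tested.

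Signalling lists were closer to each other. Of 20 LIF and JAK-STAT genes, 5, 4 and 5 had a peak in DP and 7, 3 and 3 in Oct4+ at equal numbers, with 0 called. Lifr, the LIF receptor, ranked 1739, 413 and 2726 in DP and 336, 3439 and 56 in Oct4+, ranges that overlap. The 31 FGF and ERK genes counted 8, 6 and 6 in DP and 11, 10 and 6 in Oct4+. Among them, the immediate-early gene Egr1 was DP-only, at 1149, 1240 and 1857 against 6849, 3531 and 5489. The ETS factor Etv1 was Oct4-only, at 1535, 2195 and 1719, with no DP peak. Dusp6, the ERK phosphatase, ranked 479, 2193 and 3305 in Oct4+ and 3467 and 3809 in DP replicates 1 and 3.

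The 26 Wnt genes counted 6, 6 and 5 in DP and 4, 4 and 2 in Oct4+, with DP higher in every library, as it was over all genes. Notum, a secreted Wnt inhibitor, was Oct4-only by peak centres, at 247, 323 and 971, but not by edges, which gave DP ranks of 3286, 1768 and 5825. It had H3K27me3 in 3 of 3 DP and 0 of 3 Oct4+ lists. Gsk3b, the kinase that CHIR99021 inhibits, was DP-only at 1126, 1139 and 345 against 4184 and 4420 in Oct4+ replicates 1 and 2. Nodal and BMP genes counted 4, 3 and 9 of 26 in DP and 4, 6 and 7 in Oct4+, where Nodal and Gdf3 were Oct4-only and Smad5, a BMP effector, DP-only (2752, 2873 and 1601 against 11994, 15262 and 5371). Smad7, the inhibitory SMAD, ranked 12, 272 and 12 in DP and 7477, 3052 and 2184 in Oct4+.

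Metabolic and housekeeping lists differed by less. Ribosomal protein genes had a peak in 30.4 ± 3.53% (DP) and 31.1 ± 3.86% (Oct4+) of 91 genes, and oxidative phosphorylation genes in 12.7 ± 1.57% and 13.1 ± 2.15% of 97, in both cases with overlapping libraries. Ndufb4 and Ndufaf3 were Oct4-only, and Ndufs7, Ndufs3 and Ndufa8 DP-only, all of them subunits or assembly factors of complex I. These 2 and 3 of 97 genes stand beside 0.811% and 2.01% of all genes, and no pattern over complex I is read from so few calls. By edges Ndufaf3 lost its call through a peak at rank 1346 in DP replicate 1, and Ndufs7 through one at rank 790 in Oct4+ replicate 1. Glycolysis genes counted 9, 7 and 6 of 22 in DP and 5, 9 and 4 in Oct4+. The one glycolysis gene called Oct4-only or DP-only was Pdk1, a kinase that inhibits pyruvate dehydrogenase, which was Oct4-only with ranks of 20, 40 and 146, no DP peak, and H3K4me1 in 3 of 3 Oct4+ and 0 of 3 DP lists.

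Among the 177 Oct4-only genes, those of best mean rank were led by Sp110 (27, 12 and 7), Lemd1 (47, 27 and 22), Gtf2ird1 (58, 38 and 11), C130026I21Rik (54, 47 and 36), Ssr2 (101, 35 and 16) and Phc1 (64, 45 and 69). Phc1 is a subunit of Polycomb repressive complex 1. Apart from Lemd1, these genes were listed in DP replicates 1 and 3, though not in replicate 2. Gtf2ird1 ranked 3150 and 3665 there, just past the equal number, Ssr2 4693 and 3788, and Sp110 4930 and 5724. Phc1 ranked 8277 and 9910, and C130026I21Rik 8774 and 11872. Lemd1 had no DP peak, H3K4me1 in 3 of 3 Oct4+ and 0 of 3 DP lists, and H3K27me3 in 3 of 3 DP and 1 of 3 Oct4+ lists. Of the others, Pdk1, Gm10553 and Tdpoz3 had no DP peak, and Ncoa1, a nuclear receptor coactivator (114, 133 and 55), Zbtb45 (277, 81 and 63) and Ranbp17 (304, 19 and 119) were listed in DP at ranks of 6474 to 11739. By edges Zbtb45 had a DP peak at rank 3044 and lost its call. Sp110, C130026I21Rik, Gm10553 and Tdpoz3 belong to clusters of near-identical gene copies, so reads could have been split between copies, and none of the 4 had an H3K4me1 peak in either population.

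The 12 DP-only genes of best mean rank were led by Lrrfip1 (58, 32 and 14), Frmpd1 (28, 20 and 87), Tmem140 (16, 35 and 115), Retreg1 (74, 25 and 91), a receptor for autophagy of the endoplasmic reticulum, and the stress-response factor Atf3 (45, 101 and 53). Gsn ranked 160, 31 and 55 and Stra6, the receptor for retinol-binding protein, 30, 187 and 39. Ubald2, Tbc1d24, Col4a1, Afmid and Tnrc18 completed the 12, with DP ranks of 14 to 219. None of the 12 lacked an Oct4+ peak in whole lists. Lrrfip1 and Atf3 were in all 3, at ranks of 4307 to 6689, and the other 10 in Oct4+ replicate 1 or 2. By edges Tmem140 (rank 2288 in Oct4+ replicate 1), Tbc1d24 (3062 in replicate 2) and Afmid (1106 in replicate 2) lost their calls. Of the 11 DP-only genes at both list sizes, chosen after their values were seen, Glipr1 (584, 985 and 651), Tmem144 (957, 487 and 936) and Rin1 (1402, 1928 and 1740) were among those with ranks under 2000 in every DP list.

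Some genes held several of the kept peaks. After their values were seen, genes with at least 3 peaks in every list of a population at equal numbers were counted, 4 in DP and 8 in Oct4+. Tbl1xr1, a corepressor subunit, had 6, 5 and 6 peaks in Oct4+ against 2, 1 and 1 in DP, and Rbpj, the DNA-binding effector of Notch, 4, 4 and 4 against 1, 1 and 1. Zfp981, from a multi-copy zinc-finger family, had 4, 4 and 5 against 0, 0 and 0. Not all of the 8 differed so: Gatad2a had 3, 4 and 4 peaks in Oct4+ against 4, 2 and 4 in DP, and Tead1 4, 5 and 3 against 3, 2 and 5. In DP, Slc7a1, a transporter of cationic amino acids, had 3, 3 and 3 peaks against 0, 0 and 0, and Pacsin2, a membrane-bending protein, 4, 5 and 5 against 2, 2 and 1.

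The 388 shared genes were also compared by order. In 51 of them (13.1%) every DP rank was above every Oct4+ rank, and in 40 (10.3%) the reverse held. For a single gene, full separation in either direction has an exact permutation p of 0.10. Some of these genes can therefore separate without a difference between the populations. Klf2 and the acetyltransferase gene Kat6b (16, 123 and 1599 in Oct4+ against 2621, 2488 and 1683) had the largest gaps of median rank on the Oct4+ side, followed by Csf2ra, which has near-identical copies, Epc1, Eif4a2 and N4bp1. N4bp1 ranked 15, 13 and 30 in Oct4+ and 551, 1614 and 1377 in DP. On the DP side, Pgs1 (4, 961 and 7 against 2068, 1268 and 2193), the Hippo pathway gene Wwc2 (41, 53 and 112 against 2132, 1873 and 1059) and Erf, an ETS repressor downstream of ERK (1066, 1234 and 432 against 2664, 3013 and 2408), led, with Amotl2, Csrnp1 and Thoc1. By edges the ranks of Pgs1 overlapped, at 4, 961 and 7 in DP against 100, 1268 and 327 in Oct4+.

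H3K27ac lay at promoters more often in DP. Promoters, from 1 kb before to 100 bp after a TSS, were overlapped by 71.8, 69.5 and 69.1% of DP peaks and 42.8, 46.7 and 49.2% of Oct4+ peaks at equal numbers. The means were 70.1 ± 1.49% and 46.3 ± 3.22%, a difference of 23.9 points. The exact permutation test of this difference, two-sided, gave p = 0.10, or 0.12 after adjustment over the 6 tests of this kind. This p is the smallest that 3 libraries against 3 can reach, so no test of this kind could pass 0.05. Every DP list was above every Oct4+ list. With whole lists the means were 63.7 ± 5.22% and 26.5 ± 13.5% (exact p = 0.10, adjusted p = 0.12), and Oct4+ replicate 3, the shortest Oct4+ list, stood above replicates 1 and 2 at 41.8% against 21.0 and 16.6%. The difference at equal numbers was 14.9 points when peaks were ranked by their maximum in place of their total signal, where the populations overlapped (exact p = 0.20), and 15.8 points when the maximum itself had to lie in the promoter. Peaks 20 to 100 kb from a TSS made up 13.6 ± 1.32% in DP and 24.0 ± 2.27% in Oct4+, and those beyond 100 kb 2.20 ± 0.315% and 7.45 ± 1.30%.

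**Figure D3:**
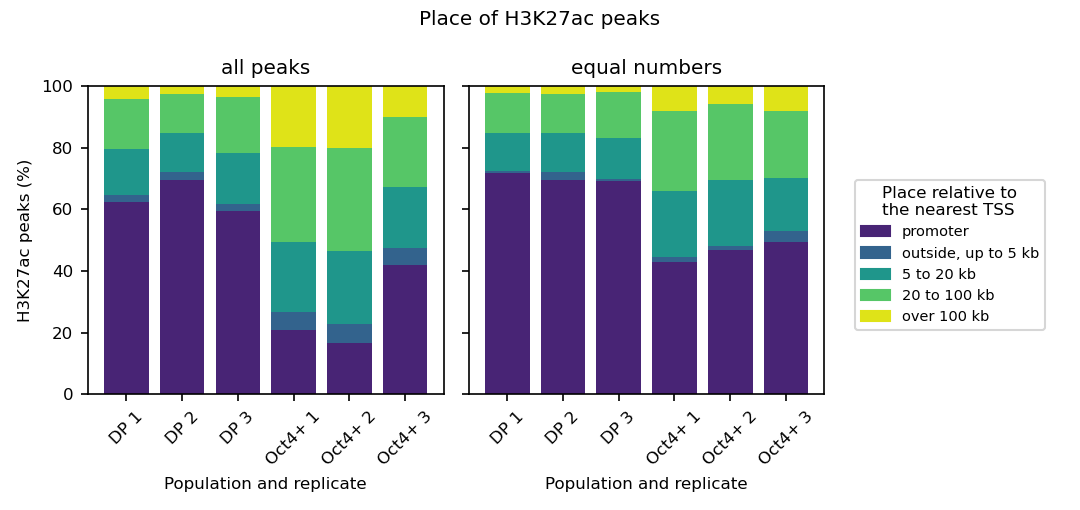
Share of H3K27ac peaks (%) by place relative to the nearest TSS in each library, for whole lists and at equal numbers. The promoter part of each DP bar is taller than that of each Oct4+ bar in both panels, from 69.1% to 71.8% against 42.8% to 49.2% at equal numbers.

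By bases covered, libraries of one population were more alike than libraries of different populations. The Jaccard index (bases in common, divided by all bases in one list or both) was 0.318 to 0.411 within DP, 0.210 to 0.300 within Oct4+ and 0.114 to 0.168 between them at equal numbers. The mean within minus the mean between was 0.170 (one-sided exact permutation p = 0.10, the smallest that 10 partitions of the 6 lists allow). The difference was 0.0965 with whole lists, whose lengths differ.

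Merging the 6 lists at equal numbers gave 7609 regions, of which 503 were Oct4-only, 644 DP-only and 470 shared by all 6 lists. Outside promoters lay 399 of the Oct4-only (79.3%), 197 of the DP-only (30.6%) and 61 of the shared regions (13.0%). Among the distal Oct4-only regions, 271 had no peak in any whole DP list, and among the distal DP-only regions 39 had none in any whole Oct4+ list. Of the strongest distal regions, chosen after their values were seen and measured from the region's centre, Oct4-only ones lay 55.3 kb from Klf4 and 97.2 kb from Rybp, and DP-only ones 41.6 kb from Creb3l2, 34.2 and 18.7 kb from Klf6 and 67.9 kb from Foxq1. Klf4 itself had shared H3K27ac near its TSS, with higher ranks in DP, as given above.

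H3K4me1, which marks enhancers whether active or primed, was read at these regions in the same populations. At the 399 distal Oct4-only regions, H3K4me1 peaks lay at 48.9, 85.7 and 68.4% in the Oct4+ lists and at 20.1, 45.1 and 41.9% in the DP lists, or 67.7 ± 18.4% and 35.7 ± 13.6% (two-sided exact permutation p = 0.10, adjusted p = 0.12). At the 197 distal DP-only regions they lay at 59.4, 90.9 and 86.8% in DP and at 10.7, 36.0 and 16.2% in Oct4+, or 79.0 ± 17.1% and 21.0 ± 13.3% (exact p = 0.10, adjusted p = 0.12). In both classes every library of one population was above every library of the other. The H3K4me1 lists differed in length, from 4127 to 16057 peaks, and at equal numbers of H3K4me1 peaks the shares were 56.1 ± 6.23% against 21.3% (19.8 to 22.8) at Oct4-only and 66.2 ± 8.65% against 10.7 ± 0.508% at DP-only regions. DP lists thus had H3K4me1 at a larger share of the Oct4-only regions than Oct4+ lists had at the DP-only regions, 21.3 against 10.7%, a difference between 2 sets of regions that was not tested. At the 61 shared distal regions, the shares were 75.4 ± 14.8% in DP and 73.8 ± 17.3% in Oct4+. Same-numbered libraries there gave the same count in replicates 2 (55) and 3 (46), but not at the same regions, since 4 and 10 of the 61 differed.

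H3K27me3 was rare at these regions. Its lists held 3798, 8672 and 6418 peaks in DP and 1629, 2948 and 5785 in Oct4+. Of the 503 Oct4-only regions, 15, 32 and 18 had an H3K27me3 peak in the DP lists and 1, 2 and 7 in the Oct4+ lists, or 4.31 ± 1.80% and 0.663 ± 0.639% (exact p = 0.10, adjusted p = 0.12). Of the 644 DP-only regions, 23, 48 and 99 had one in Oct4+ and 18, 32 and 18 in DP, or 8.80 ± 6.01% and 3.52 ± 1.26% (exact p = 0.20, adjusted p = 0.20), with overlapping libraries. DP minus Oct4+ was -5.28 points at DP-only regions, and -1.63 points without replicate 3. At equal numbers of H3K27me3 peaks the shares at DP-only regions were 3.93 ± 0.628% in Oct4+ and 0.880 ± 0.359% in DP, and at Oct4-only regions 0.199% in each Oct4+ list and 1.39 ± 0.398% in DP. Of the 470 shared regions, 6, 7 and 4 had an H3K27me3 peak in DP and 0, 0 and 3 in Oct4+. These are 1.21 ± 0.325% and 0.213 ± 0.369%, so DP was also higher at regions acetylated in both populations.

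**Figure D4:**
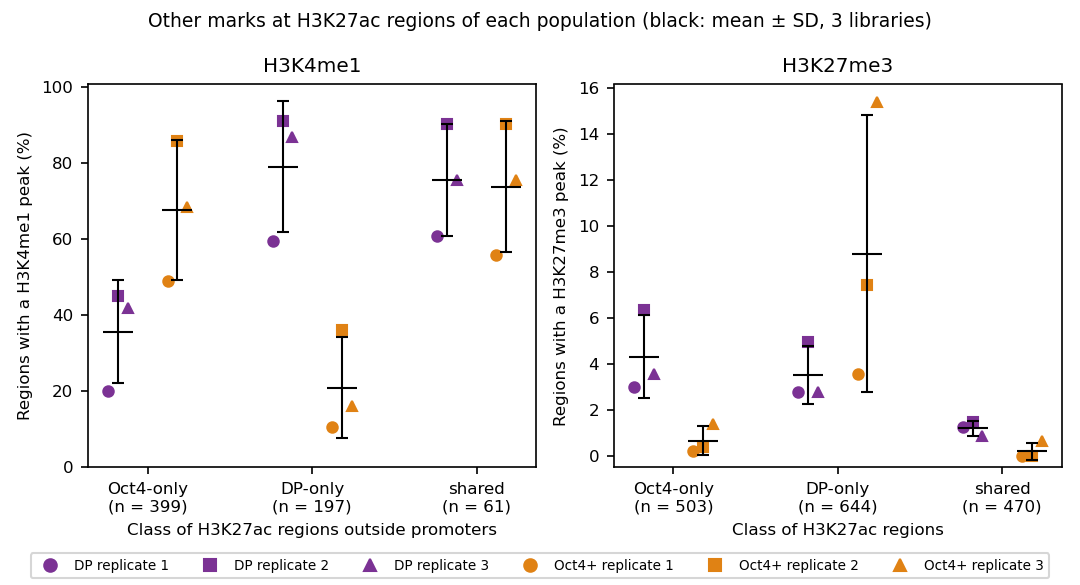
Share of H3K27ac regions (%) that overlap an H3K4me1 peak (left, regions outside promoters) or an H3K27me3 peak (right) in each library, for Oct4-only, DP-only and shared regions, with mean ± SD over 3 libraries. H3K4me1 is higher in every library of the population that has the H3K27ac peak, and is alike at the 61 shared regions.

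Motifs of transcription factors were searched in 400 bp around the maximum of each distal peak at equal numbers, on both strands and with exact matches. AGATAA, the GATA motif, was found in 32.5, 28.0 and 32.8% of distal DP peaks and in 19.4, 15.3 and 18.6% of distal Oct4+ peaks, beside 11.3% of the same windows at all TSSs. TGANTCA, the AP-1 motif, was found in 24.7 ± 3.14% of DP and 14.4 ± 2.12% of Oct4+ peaks (7.76% at TSSs). ACATTCC, bound by TEAD factors, was found in 16.4 ± 1.74% and 10.9 ± 0.867% (4.25% at TSSs). AACAATGG or AACAAAGG, recognised by SOX factors, was in 8.73 ± 1.18% and 5.86 ± 1.07% (2.74% at TSSs). In each of these 4 cases every DP list was above every Oct4+ list (exact p = 0.10, adjusted p = 0.125 over 10 motifs).

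The ESRRB motif, TCAAGGTCA, went the other way, at 1.15, 0.745 and 0.735% in DP and 2.61, 2.56 and 3.39% in Oct4+ (0.517% at TSSs). The octamer ATGCAAAT, bound by OCT4 and other POU factors, was in 1.78 ± 0.155% of DP and 2.28 ± 0.143% of Oct4+ peaks (1.57% at TSSs). For both, every Oct4+ list was above every DP list (exact p = 0.10, adjusted p = 0.125), but DP minus Oct4+ for the octamer, -0.497 points, was -0.186 among distal peaks of whole lists (exact p = 0.60). TGTTTAC, of forkhead factors, was in 8.44 ± 0.445% and 7.29 ± 0.415% (3.6% at TSSs), and GCCNNNGGC, of TFAP2 factors, in 16.7 ± 0.0991% and 13.7 ± 1.99% (26.8% at TSSs), both higher in every DP list (exact p = 0.10, adjusted p = 0.125). The KLF motif (GGGTGTGGC or GGGCGTGGC, 3.53 ± 0.553% and 3.17 ± 0.390%, 4.82% at TSSs) and the STAT motif (TTCCNGGAA, 2.54, 2.34 and 1.89% in DP and 1.65, 2.32 and 1.92% in Oct4+, 1.42% at TSSs) overlapped between populations (exact p = 0.40, adjusted p = 0.40 for each). Among distal peaks of whole lists, DP minus Oct4+ was 1.21 points for KLF and 0.892 for STAT, with DP higher in every library (exact p = 0.10 for each). ACATTCC and TTCCNGGAA can overlap in their shared TTCC.

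Base composition and repeats moved with these shares. The windows were 50.9 ± 0.486% GC in DP and 49.1 ± 1.05% in Oct4+, and 15.0 ± 2.32% and 24.3 ± 3.59% of their bases were repeat-masked. Their part in the motif shares was not tested. In the regions called by class, each taken once, the GATA motif was in 33.5% of the 197 distal DP-only, 15.8% of the 399 distal Oct4-only and 13.1% of the 61 distal shared regions, AP-1 in 27.4, 13.3 and 16.4%, and the ESRRB motif in 0.508, 5.76 and 3.28%.

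**Figure D5:**
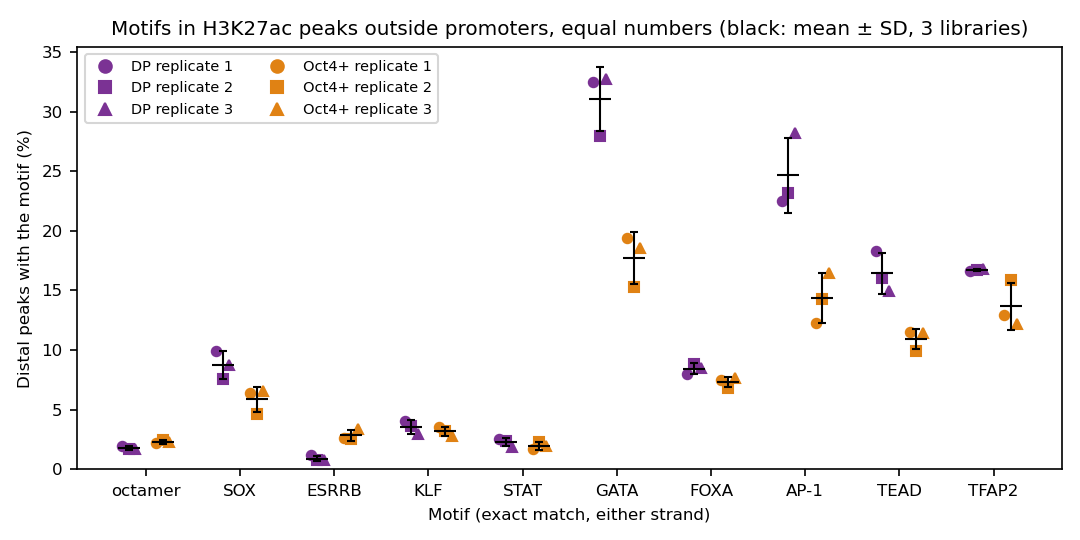
Share of H3K27ac peaks outside promoters (%) with an exact match to each of 10 motifs in 400 bp, at equal numbers, per library with mean ± SD over 3 libraries. GATA, AP-1, TEAD, SOX, FOXA and TFAP2 motifs are higher in all DP libraries. The ESRRB motif and the octamer are higher in all Oct4+ libraries, while KLF and STAT overlap.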

How the data were processed

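CUT&Tag of H3K27ac was carried out on sorted DP and Oct4+ nEnd, 3 libraries each, and lists of H3K4me1 and H3K27me3 from the same populations were read at the H3K27ac regions. The deposited lists are SEACR peaks called by the authors in stringent mode against IgG, each with total and maximum signal in fragment coverage, as whole numbers not scaled to depth. The submitters' processing notes name bcl2fastq 2.19.1, Bowtie2, SAMtools 1.12, deepTools, SEACR, bedtools 2.26.0 and build mm10, which is GRCm38. No source used here gives the number of reads.

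Peaks were assigned to TSSs of protein-coding transcripts (GENCODE vM21) in Python 3.11.15 with NumPy 2.4.6 and pandas 2.3.3. Intervals were checked against bedtools 2.31.1 and calls on made-up lists with planted genes, and plots drawn with Matplotlib 3.10.9. Sequences are RefSeq GRCm38.p6. Populations were compared over libraries by exact permutation tests of the difference of means over 20 assignments, with Benjamini-Hochberg adjustment, and gene calls carry no test. The p-values cover libraries of 1 line.

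Genes, lists and comparisons were chosen with earlier results of these data known, so lists are described by counts alone. Named were the genes of the sort, a fixed set of loci, up to 6 genes a list by the difference in number of lists, the 12 genes of best mean rank a direction and the 6 shared genes with the largest gaps of median rank; other genes of the lists were named after their values were seen. The shown regions near Gata6 or Sox17 were left out: Gata6 lies on chromosome 18, from which no sequence is shown, and no distal peak of Sox17 was in all 3 DP lists. Alternatives were other distance limits, assignments, ranks, windows and numbers of lists, leaving out each replicate, and a replicate block. The values of 1 gene of the endoderm list are not reported here.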

Additional observations from a re-analysis of the deposited data

How the results depend on the processing

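Among the alternatives, the replicate block can change only the p of a difference, not its size or direction. The 17 tested results kept their direction in 104 of 107 alternative values, block included, and none reached a p under 0.10. The exceptions were the KLF motif in 200 bp windows (-0.0699 points) and the STAT motif in 200 bp windows (-0.0333) and without replicate 1 (-0.000686, against 0.459 without replicate 3). Counts of genes moved more. Oct4-only genes in whole lists, 559, were 298 within 5 kb, 3058 with at least 2 of 3 lists and 39 at a common total signal, and 574 to 3632 with replicates left out. DP-only genes in whole lists, 22, were 37 within 5 kb, 13 by peak edges, 204 with at least 2 of 3 lists, 408 at the common total signal, and 42 to 731 with 1 replicate number left out, or 187 without DP replicate 2. At equal numbers, Oct4-only genes (177) were 95 within 5 kb, 459 with at least 2 of 3 lists, 99 with the 1539 highest peaks, and 285 to 350 with 1 replicate number left out. DP-only genes (438) were 663 by peak edges, 876 with at least 2 of 3 lists, 256 ranked by maximum signal, 254 with the 1539 highest peaks, and 624 to 1169 with replicates left out. Shared genes (388) were 888 by peak edges, 914 with at least 2 of 3 lists, 132 with the 1539 highest peaks, and 511 to 1770 with replicates left out. Fewer lists to satisfy raise such counts by construction; for the rest the cause was not tested. At equal numbers, DP-only genes outnumbered Oct4-only genes under every alternative run. Differences that shrank by over 1.5 times were the promoter share by the place of the maximum (22.9 points in whole lists, 15.8 at equal numbers) and ranked by maximum signal (14.9), the Jaccard difference in whole lists (0.0965), those of the GATA, TEAD, SOX and octamer motifs in 200 bp windows (8.58, 3.50, 1.63 and -0.248 points), ESRRB and the octamer among all distal peaks (-0.752 and -0.186), FOXA without replicate 2 (0.705), H3K27me3 at Oct4-only regions at equal numbers of its peaks (1.19), and, at DP-only regions, -3.05 at equal numbers and -1.63 without replicate 3. Those that grew as much were H3K27me3 at DP-only regions with no H3K27ac peak in whole Oct4+ lists (-12.1), KLF, STAT and FOXA among all distal peaks (1.21, 0.892 and 2.36), and STAT without replicate 3 (0.459). Leaving out DP replicate 2 alone, and leaving out peaks over repeats (139 Oct4-only, 429 DP-only and 369 shared genes), were chosen after seeing the data.

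With a replicate block, an exact sign-flip test of same-numbered libraries, the smallest p possible is 0.25. The promoter difference at equal numbers stayed at 23.9 points under the block (exact p = 0.25), and the block changed no call. Deviations of same-numbered libraries correlated at 0.0167, -0.0640 and -0.0579 over genes, and those of differently numbered ones at -0.0204 to 0.0771. Such low values do not settle whether the numbers pair the libraries. Depth is unknown, and lists with higher limits of total signal cannot show weaker peaks.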
